A study of Homo sapiens with 4 samples.

Results

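Angiogenic factors and their receptors are described here as a set of 10 named genes: *EGFL7*, *VEGFA*, *VEGFB*, *VEGFC*, *PGF*, *NRP1*, *NRP2*, *ANGPTL4*, *PDGFA* and *EDN1*. They were picked by symbol from the 16813 genes listed in at least 1 library, and 9 of the 10 had enough counts to be among the 13148 genes tested. RNA sequencing was performed on PC9 cells, a human lung adenocarcinoma cell line whose growth depends on mutant *EGFR*, and on PC9OR cells, a line derived from PC9 that resists osimertinib, an inhibitor of *EGFR* kinase. Each line gave 2 biological replicates, which makes 4 libraries. Both lines carried the genotype label WT and were grown in RPMI 1640 with fetal bovine serum, PC9 with the phenotype label control and PC9OR with the label osimertinib resistant. The sources used here do not state whether osimertinib was in the medium at harvest, whether PC9OR is 1 clone, or whether the replicates came from separate cultures, so the p-values measure only the spread between these libraries of 1 resistant line. The comparison asks whether genes of blood vessel growth moved with *EGFL7*, which the study singled out as higher in these same PC9OR libraries, so that its own direction is not independent evidence.

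Blood vessel growth is driven by secreted factors that tumour cells release and that act on endothelial cells. *VEGFA*, *VEGFB*, *VEGFC* and *PGF* bind the receptor tyrosine kinases *FLT1*, *KDR* and *FLT4*, with the neuropilins *NRP1* and *NRP2* as co-receptors that also bind class 3 semaphorins together with plexins. *EGFL7* is a secreted protein with EGF-like domains, made mainly by endothelial cells, that acts on NOTCH signalling. *PDGFA* recruits mesenchymal cells through *PDGFRA*, and *EDN1* is an endothelin that constricts vessels and has the receptors *EDNRA* and *EDNRB*. *ANGPTL4* is a secreted inhibitor of lipoprotein lipase that responds to PPAR and to hypoxia.

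The other angiogenic factors did not follow *EGFL7* as a group. Of the 9 tested members, *EGFL7* was the 1 gene higher in PC9OR cells, and 4 were lower, the lymphatic growth factor *VEGFC*, the co-receptor *NRP2*, and the secreted factors *PDGFA* and *EDN1*. *VEGFA*, *VEGFB*, *PGF* and *NRP1* did not pass the test, and *ANGPTL4* was too low to test. Of the 8 tested members other than *EGFL7*, 0 were called higher and 4 lower by edgeR (quasi-likelihood test, Benjamini-Hochberg adjustment) at 0.05. Of all genes tested, 15.6% were called higher and 20.8% lower. At a share of 15.6%, few of 8 genes would be called higher, so 0 is near that share. With a change of more than 2-fold required as well, 1 member was higher and 3 were lower, beside 6.13% and 11.6% of all genes. In CPM, the counts scaled by library size, the PC9 and PC9OR libraries did not overlap for any of the 9 tested members, 3 being higher and 6 lower in PC9OR. The same held for 39.6% of all genes on the higher side and 38.2% on the lower side, so separation of the 4 libraries was common among all genes. A second edgeR fit took a smooth curve of transcript length and GC content out of each library (length and GC offsets). There 3 members were higher, *EGFL7*, *VEGFA* and *PGF*, and 4 lower, *VEGFB*, *VEGFC*, *NRP2* and *EDN1*, beside 21.4% of all genes called higher and 19.4% lower. At more than 2-fold with an adjusted p under 0.001, edgeR called 0 of 13148 genes (0%). Of these, 6653 genes and 7 members had an unadjusted p under 0.05, while at that stricter level DESeq2 called 1735 genes and 4 members. The study set that level, with a q value, for its own gene lists and used DEGseq. The MA-plot-based model of DEGseq, rewritten here, called 2929 genes and 5 members at that level. That model pools the replicates of a line and made 7965 false calls on simulated counts. The median log2 fold change of the members was -0.55, and -0.87 without *EGFL7*, beside 0.01 over all genes tested.

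**Figure D1:**
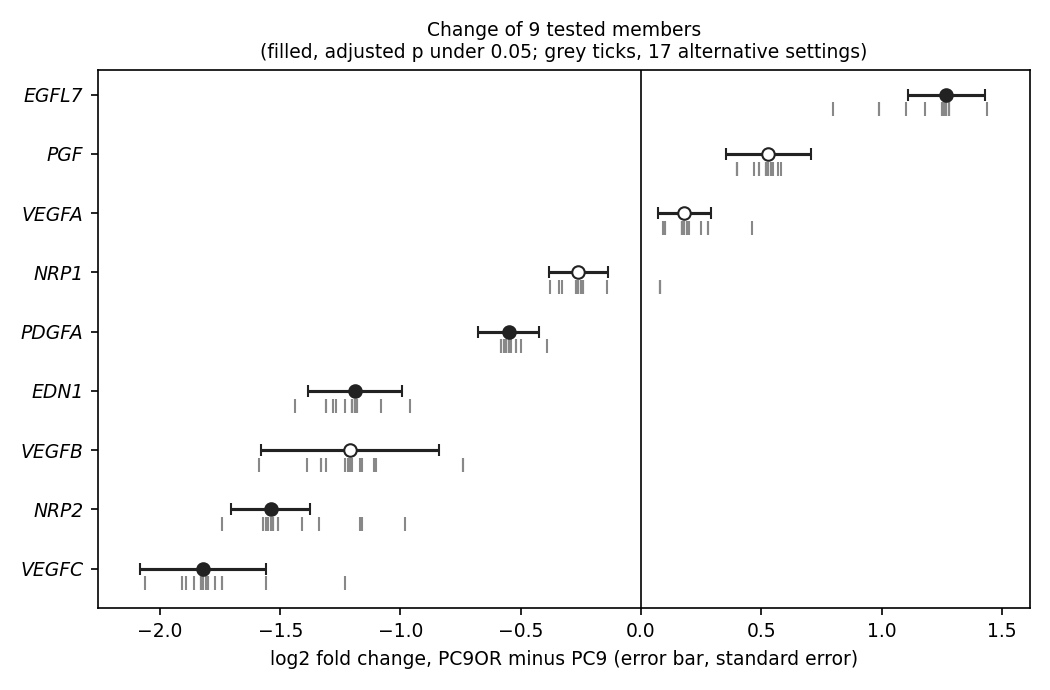
The log2 fold change of each tested member (x axis, PC9OR minus PC9) from edgeR, with its standard error as the error bar and grey ticks for 17 alternative settings. Only *EGFL7* lies to the right of 0 with a filled symbol, and *NRP1* is the 1 gene with ticks on both sides of 0.

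Totals ranged from 23201307 to 32203998 expected counts, and the variation between replicates, as a biological coefficient of variation, was 0.241 in PC9 and 0.104 in PC9OR. Change also moved with transcript length. Over 11422 genes the rank correlation of length with the log2 difference was -0.46 between the 2 PC9 replicates, 0.00 between the 2 PC9OR replicates and -0.40 between the lines, as a description across genes that are not independent replicates. The value under length and GC offsets is therefore given for members whose call it changed, and the counts of calls under it for each related list where they differed. Of 9 epithelial markers 7 passed 1 FPKM (fragments scaled by transcript length and library size) in at least 1 library, *MUC1* among them in PC9 alone, but the lung lineage genes *NKX2-1* and *NAPSA* were at or below 0.17 FPKM in every library.

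Promoters of members that moved in opposite directions were set side by side to show which short motifs they hold. Each line gives the 250 bases before a RefSeq transcription start, 5′ to 3′ along the gene, from the GRCh38.p14 build, and no base after that start is shown. Capitals mark matches, on either strand and merged where they overlap, to the hypoxia response core ACGTG, its variant GCGTG, the AP-1 motif TGANTCA, the GC box GGGCGG, the TATA box TATAAA and the letters TGGGAA that RBPJ, the NOTCH-regulated factor, recognises. *EGFL7*, which was higher in PC9OR, is shown at the second of its 2 listed starts, since the first window held no match, and *EDN1*, which was lower, at the third of its 3, the 1 start that a GENCODE transcript shares. The windows shown were thus chosen with their matches known.
EGFL7, chr9:136662666-136662915, plus strand: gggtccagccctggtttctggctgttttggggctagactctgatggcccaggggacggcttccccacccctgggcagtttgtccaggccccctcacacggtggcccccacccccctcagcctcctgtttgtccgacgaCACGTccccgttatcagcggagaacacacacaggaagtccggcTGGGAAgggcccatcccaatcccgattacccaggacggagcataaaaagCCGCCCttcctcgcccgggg
EDN1, chr6:12290111-12290360, plus strand: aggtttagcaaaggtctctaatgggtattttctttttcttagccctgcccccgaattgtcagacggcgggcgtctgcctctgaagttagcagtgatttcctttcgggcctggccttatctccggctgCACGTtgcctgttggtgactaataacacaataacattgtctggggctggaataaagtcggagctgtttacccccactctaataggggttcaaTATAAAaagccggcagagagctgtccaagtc
VEGFC, chr4:176792923-176793172, minus strand: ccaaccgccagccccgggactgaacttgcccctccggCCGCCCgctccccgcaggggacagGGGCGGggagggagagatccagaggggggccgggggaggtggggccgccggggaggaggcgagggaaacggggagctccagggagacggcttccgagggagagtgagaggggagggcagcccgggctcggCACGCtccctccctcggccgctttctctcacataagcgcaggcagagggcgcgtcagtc
NRP2, chr2:205682251-205682500, plus strand: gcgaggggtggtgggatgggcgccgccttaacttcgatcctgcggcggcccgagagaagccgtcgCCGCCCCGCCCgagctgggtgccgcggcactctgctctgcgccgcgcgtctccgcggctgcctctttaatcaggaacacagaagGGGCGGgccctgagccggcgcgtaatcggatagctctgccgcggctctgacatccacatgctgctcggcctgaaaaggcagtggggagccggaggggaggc
The hypoxia core ACGTG was found 112 bases upstream in *EGFL7* and 123 bases upstream in *EDN1*, counted from the start to the first base of the match, each time as CACGT on the strand shown. The first *EGFL7* window and the second *EDN1* window held none of the motifs, and the first *EDN1* window held ACGTG at 2 places. The *VEGFC* window held the variant GCGTG and GC boxes, and the *NRP2* window held GC boxes alone. The table had promoters for 8 of the 10 members, with 15 starts in all, and none for *VEGFA* and *NRP1*. ACGTG occurred in 26.7% of the 15 windows and in 18.5% of all 35116 windows of the same length in the table. GCGTG stood in 46.7% against 32.2%, GGGCGG in 80% against 42.6%, TATAAA in 13.3% against 10.7%, TGGGAA in 20% against 20.8%, and TGANTCA in 0% against 6.57%. Several starts belong to 1 gene and some windows overlap, and a match describes letters, not a bound site.

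*EGFL7* (chr9:139553308-139567130, plus strand, GRCh37) rose in PC9OR cells. Its level was 8.71 and 10.9 FPKM in PC9 replicates 1 and 2, and 23.5 and 23.1 FPKM in the PC9OR replicates. Both PC9OR libraries lay above both PC9 libraries, the means being 9.82 ± 1.57 (SD, n = 2) and 23.3 ± 0.318 (SD, n = 2). The test gave a 2.41-fold higher level, a log2 fold change of 1.27 with a standard error of 0.16 (edgeR adjusted p = 0.00842). In bulk RNA, more expressing cells and more RNA per cell cannot be told apart. The fold change was smaller under length and GC offsets, a log2 value of 0.80 (edgeR adjusted p = 0.00721), and the call held in 17 of 17 alternative settings. Of all genes tested, 93.9% had a lower log2 fold change than *EGFL7*. In order of level, *EGFL7* stood at position 5 of the 10 members in PC9 and at position 2 in PC9OR.

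The tested genes closest to *EGFL7* over the 4 libraries, by the Euclidean distance of centred log2 CPM, were the ubiquitin ligase gene *TRIM7* (0.063), the growth factor gene *TGFB3* (0.063) and the metabolic enzyme gene *IDH1* (0.064). *IDH1* measured 158 and 209 CPM in PC9 and 446 and 460 CPM in PC9OR. Its log2 fold change was 1.30 (edgeR adjusted p = 0.00846). *TRIM7* and *TGFB3* were at 7.68 CPM or less, with log2 fold changes of 1.32 and 1.33 (edgeR adjusted p = 0.0193 and 0.0321). Both of these calls were lost when either PC9OR replicate was left out. Over 4 libraries the distance largely restates the difference between the lines. The nearest of the other members was *PGF*, at a distance of 0.814, so no other angiogenic gene of the set ran close to *EGFL7*. Of its relatives, *EGFL8* gave 0.45 and 1.09 FPKM in PC9 and 0 and 0.67 in PC9OR and was not called, and *EGFL6* was listed in no library.

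**Figure D2:**
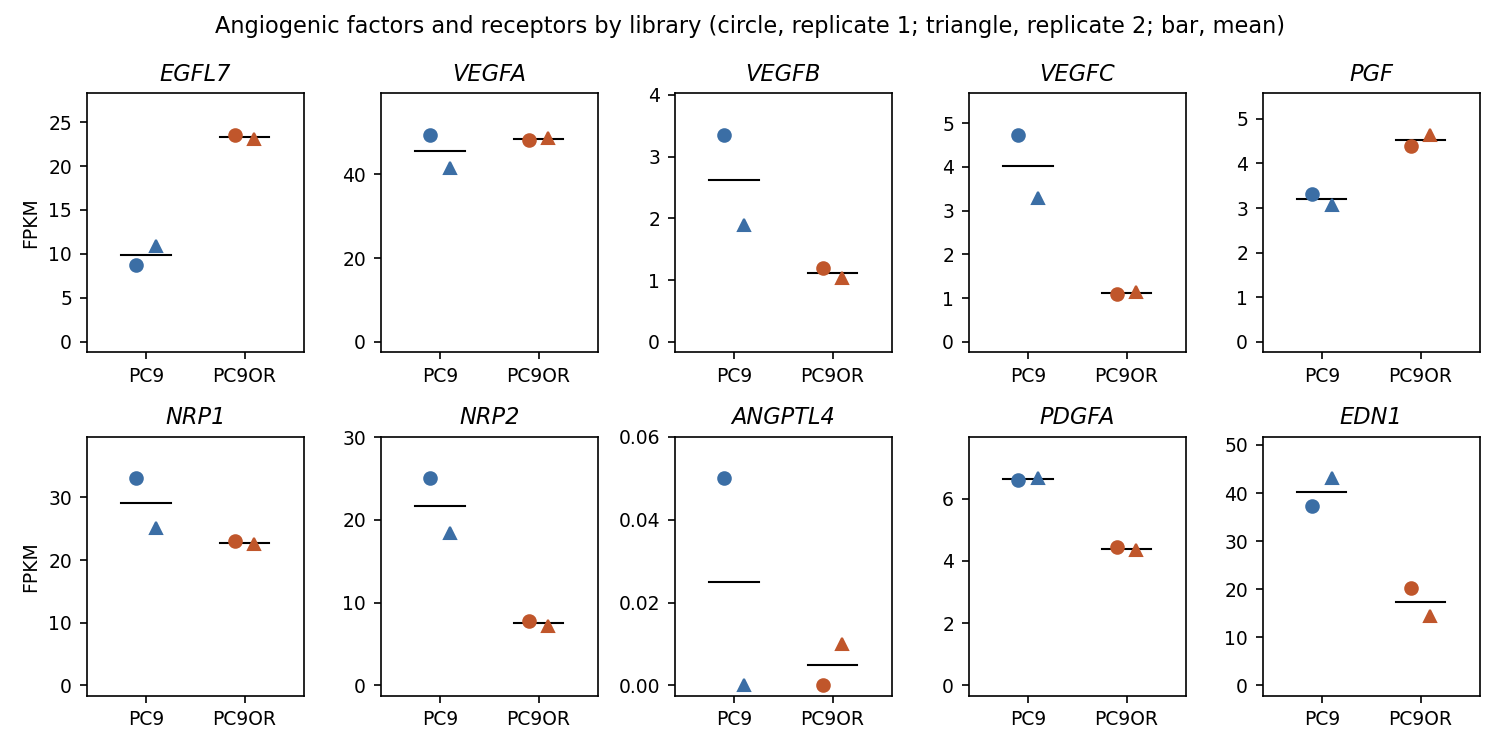
FPKM (y axis, linear, a separate scale for each gene) of the 10 members in each library, with circles for replicate 1, triangles for replicate 2 and bars for the mean of 2. *EGFL7* and *PGF* sit higher in both PC9OR libraries, *VEGFA* overlaps between the lines, and *ANGPTL4* reaches at most 0.05 FPKM.

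Among the VEGF ligands, *VEGFC* fell while *VEGFA*, the main inducer of vessel growth and the most abundant member by mean FPKM in both lines, did not pass the test. In PC9 replicate 2 *EDN1* was above it. *VEGFA* (chr6:43737921-43754224, plus strand) measured 49.5 and 41.5 FPKM in PC9 and 48.2 and 48.7 FPKM in PC9OR. On this scale PC9 replicate 1 was the highest library, and the groups overlapped. On the CPM scale the values were 206 and 185 in PC9 and 219 and 224 in PC9OR, without overlap. The length that the authors' counting gave the gene, weighted by isoform use over 20 transcripts, was 3064 bases in PC9 replicate 1 and between 3200 and 3239 bases in the other libraries. Its log2 fold change was 0.18 ± 0.111 (SE, edgeR adjusted p = 0.248). Under length and GC offsets it was 0.46 and passed (edgeR adjusted p = 0.0133), and it also passed without PC9 replicate 1, at 0.25 (edgeR adjusted p = 0.0295).

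*VEGFC* (chr4:177604689-177714076, minus strand), the ligand of *FLT4* that drives lymphatic vessel growth, had 4.73 and 3.29 FPKM in PC9 and 1.09 and 1.13 FPKM in PC9OR. Both PC9OR libraries lay well below PC9, with a log2 fold change of -1.82 and a standard error of 0.262 (3.53-fold lower, edgeR adjusted p = 0.0105). Leaving out each library in turn moved the log2 value between -2.06 and -1.56, and the call held in 17 of 17 settings. *VEGFC* was among the members that fell most, with 6.13% of all tested genes below it.

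*VEGFB* (chr11:64002056-64006736, plus strand), a ligand of *FLT1*, had 3.35 and 1.89 FPKM in PC9 and 1.2 and 1.04 FPKM in PC9OR. The groups did not overlap, but the PC9 replicates were far apart. The log2 fold change of -1.21 with a standard error of 0.369 did not pass (edgeR adjusted p = 0.0555). Under length and GC offsets *VEGFB* passed, at -1.33 (edgeR adjusted p = 0.0276). Its call depended on the setting, with 8 of 17 alternatives past the threshold, among them DESeq2 at an adjusted p of 0.0289 and the edgeR fit without PC9 replicate 2 at 0.00719.

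*PGF* (chr14:75408537-75422329, minus strand), the placental growth factor that also binds *FLT1*, had 3.32 and 3.07 FPKM in PC9 and 4.40 and 4.64 FPKM in PC9OR. Both PC9OR libraries were higher, by a log2 value of 0.53 ± 0.178 (SE), and the test did not pass (edgeR adjusted p = 0.0693). It passed under length and GC offsets, at 0.55 (edgeR adjusted p = 0.0463), and without PC9 replicate 1, at 0.57 (edgeR adjusted p = 0.043).

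The proportions of the ligands separated the lines, while their sum did not. Their summed level was 60.9 and 49.8 FPKM in PC9 and 54.9 and 55.6 FPKM in PC9OR, with PC9OR between the PC9 replicates. *VEGFA* made up 81.3% and 83.4% of it in PC9 and 87.8% and 87.7% in PC9OR. The share of *VEGFC* went from 7.77% and 6.61% to 1.98% and 2.03%, and that of *PGF* from 5.46% and 6.17% to 8.01% and 8.35%. The ratio of *VEGFA* to *VEGFC* was 10.5 and 12.6 in PC9 and 44.3 and 43.1 in PC9OR. No overlap was seen in these shares and ratios, and with 2 libraries against 2 a two-sided exact permutation test cannot give a p below 0.333, the value each of them had.

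**Figure D3:**
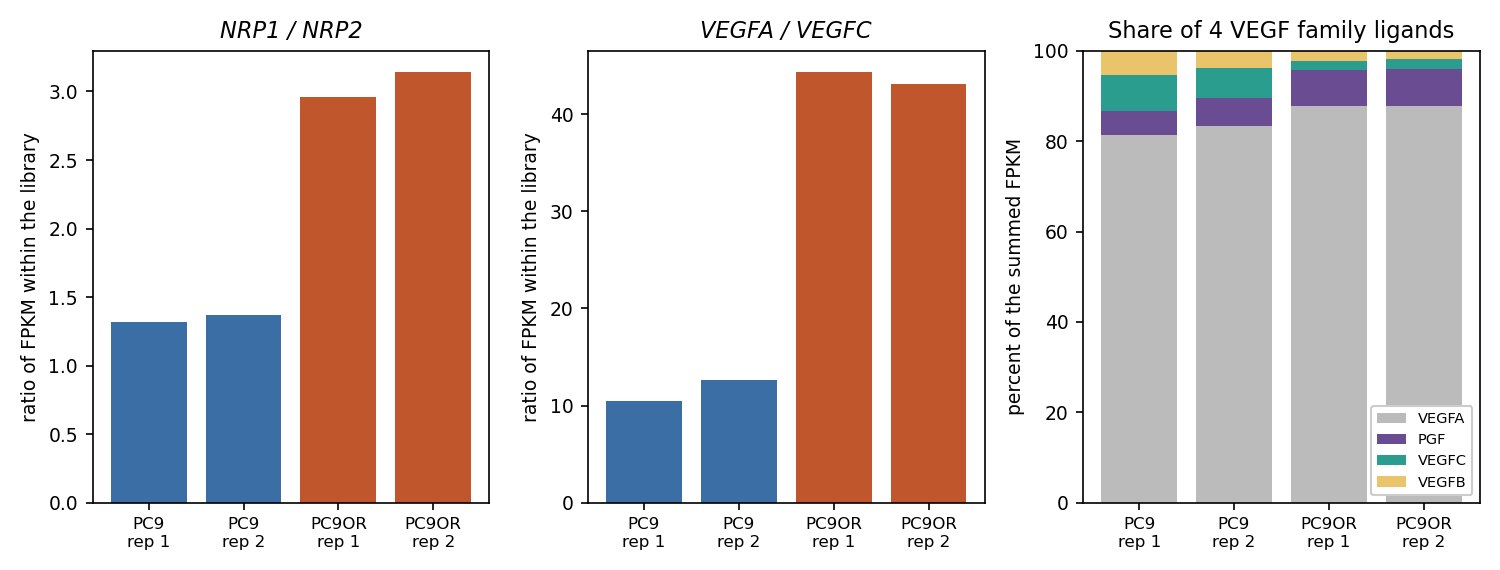
Within-library ratios of FPKM for *NRP1* over *NRP2* and *VEGFA* over *VEGFC* (bars, 1 per library, from 0) and the percent of the summed FPKM held by each of 4 VEGF family ligands. Both ratios are higher in each PC9OR library, with *NRP1* over *NRP2* at 2.96 and 3.14 against 1.32 and 1.37 in PC9, and the *VEGFC* share is 2.03% or less in PC9OR.

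The receptor tyrosine kinases of the VEGF ligands were not detected at this depth. *FLT1*, *KDR* and *FLT4* were listed in none of the 4 libraries and were taken as 0 counts, where 3 counts correspond to between 0.0936 and 0.128 CPM, a floor that covers counting error only. The remaining ligand, *VEGFD*, was listed at 0.11 and 0.31 FPKM in PC9 and at 0 and 0.08 FPKM in PC9OR, and it was too low to test.

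Of the neuropilins, *NRP2* fell and *NRP1* did not pass the test. *NRP2* (chr2:206546714-206662857, plus strand), the co-receptor for *VEGFC* and for semaphorins, had 25 and 18.4 FPKM in PC9 and 7.78 and 7.18 FPKM in PC9OR. All PC9OR values were below all PC9 values, with a log2 fold change of -1.54 and a standard error of 0.164 (2.91-fold lower, edgeR adjusted p = 0.00639). Length and GC offsets reduced the change to -0.98 (edgeR adjusted p = 0.00185), and the call held in 17 of 17 settings.

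*NRP1* (chr10:33466420-33625190, minus strand), the co-receptor for *VEGFA* and *SEMA3A*, had 33.0 and 25.1 FPKM in PC9 and 23.0 and 22.6 FPKM in PC9OR. PC9OR was lower in both libraries, but PC9 replicate 2 was closer to PC9OR than to PC9 replicate 1. Its log2 fold change of -0.26 ± 0.123 (SE) did not pass (edgeR adjusted p = 0.155), and under length and GC offsets it turned to 0.08 (edgeR adjusted p = 0.46). Without PC9 replicate 2 it passed, at -0.38 (edgeR adjusted p = 0.00677). *NRP1* was the dominant neuropilin in both lines, and its ratio to *NRP2* in FPKM went from 1.32 and 1.37 in PC9 to 2.96 and 3.14 in PC9OR. Exons of lncRNAs on the opposite strand overlap *VEGFA*, *NRP1* and *NRP2* by at most 480 bases, and since the sources used here do not state the strand setting of the counting, their reads could not be told apart.

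Most semaphorin 3 ligands bind the neuropilins, which act together with plexins. Of 11 tested genes out of 12, 6 were called lower and 1 higher, beside 20.8% and 15.6% of all genes, with a median log2 fold change of -1.18 beside 0.01 over all genes. Under length and GC offsets 5 were lower and 3 higher and the median was -0.50, *PLXNA2* no longer being called (edgeR adjusted p = 0.0768) and *PLXNA4* and *PLXND1* being called higher. *PLXNA1*, which signals with neuropilins, went from 30.6 and 21.9 FPKM to 10.3 and 8.93 FPKM, a log2 fold change of -1.41 (edgeR adjusted p = 0.00913) that was -0.60 under length and GC offsets (edgeR adjusted p = 0.0106). *PLXNA3* fell by 1.84 on the log2 scale (edgeR adjusted p = 0.0181), or by 1.12 under the offsets. *SEMA3E* fell by 2.46 on that scale (edgeR adjusted p = 0.00989), a call lost without PC9OR replicate 2 (edgeR adjusted p = 0.0505). The plexin *PLXND1*, a receptor of *SEMA3E*, was not called, at -0.12 (edgeR adjusted p = 0.745). It turned to 0.51 under length and GC offsets (edgeR adjusted p = 0.0263). Without PC9 replicate 1 its value was 0.31 and without PC9 replicate 2 it was -0.48, so its direction depended on the setting.
Among the semaphorin ligands of the neuropilins, *SEMA3A* and *SEMA3D* moved in opposite directions. *SEMA3A* had 443 counts over the PC9 libraries and 2 over the PC9OR libraries, a ratio of 271 scaled for library size, with a 95% interval of 74.6 to 2246 that covers counting error only and not the spread between replicates. *SEMA3D* went the other way, from 0 counts over PC9 to 202 over PC9OR, at least 55-fold higher against a floor of 3 counts over the group. Both were weakly expressed, *SEMA3A* at 0.93 and 1.17 FPKM in PC9 and *SEMA3D* at 0.37 and 0.33 FPKM in PC9OR.

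*EDN1* (chr6:12290594-12297427, plus strand), next after *VEGFA* in PC9, fell in PC9OR cells. It measured 37.4 and 43.0 FPKM in PC9 and 20.3 and 14.4 FPKM in PC9OR. Both PC9OR libraries were lower, with means of 40.2 ± 4 (SD, n = 2) and 17.3 ± 4.21 (SD, n = 2). Its log2 fold change was -1.19 with a standard error of 0.196 (2.28-fold lower, edgeR adjusted p = 0.0136). Without PC9OR replicate 2, its lowest library, the log2 value was -0.96 and the call was lost (edgeR adjusted p = 0.06). The ratio of *EDN1* to *EGFL7* in FPKM went from 4.29 and 3.94 in PC9 to 0.864 and 0.622 in PC9OR, so *EGFL7* passed *EDN1* in level.

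Of 6 endothelin pathway genes outside the members, 2 were tested, and edgeR called 0 of them, or 1 higher under length and GC offsets. Of all genes, 21.4% were called higher under those offsets. The endothelin-converting enzyme gene *ECE1* had 24.3 and 18.3 FPKM in PC9 and 18.7 and 18.1 FPKM in PC9OR. Its log2 fold change was -0.17 (edgeR adjusted p = 0.406), which turned to 0.32 and passed under length and GC offsets (edgeR adjusted p = 0.0396). Without PC9 replicate 2 the value of *ECE1* was -0.36, so its direction depended on the setting. The receptor *EDNRA* was listed at 0.02 FPKM or less and *EDNRB* in no library.

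*PDGFA* (chr7:536895-559933, minus strand) fell by a small amount. It had 6.59 and 6.65 FPKM in PC9 and 4.43 and 4.36 FPKM in PC9OR, so the replicates of each line were almost level and the lines were apart. Its log2 fold change was -0.55 with a standard error of 0.127 (1.47-fold lower, edgeR adjusted p = 0.0282). The call was lost under length and GC offsets, at -0.39 (edgeR adjusted p = 0.0773), and without PC9OR replicate 1 or 2, both at -0.55 (edgeR adjusted p = 0.242 and 0.247).

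Of the other PDGF genes, *PDGFD*, a ligand of *PDGFRB*, fell further than *PDGFA*. *PDGFD* went from 5.47 and 5.90 FPKM to 1.67 and 1.87 FPKM, a log2 fold change of -1.65 ± 0.15 (SE, edgeR adjusted p = 0.00529). *PDGFB* and *PDGFC* were not called, at -0.37 and 0.04 on the log2 scale. The receptors *PDGFRA* and *PDGFRB* were listed at no more than 0.02 FPKM. Of 3 tested genes in this list, 1 was lower and 0 higher by edgeR, beside 20.8% and 15.6% of all genes. The median of the list was -0.37.

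*ANGPTL4* (chr19:8428173-8439254, plus strand) was close to absent. Its expected counts were 3 and 0 in PC9 and 0 and 1 in PC9OR, at or under the floor of 3 counts in each library, so no fold change is given. Of the 7 other angiopoietin-like genes, 0 had enough counts to test. Of the angiopoietins, which act on the receptor *TEK*, *ANGPT1* was the 1 tested gene and was higher in PC9OR, with 4 and 3.79 FPKM in PC9 and 7 and 6.56 FPKM in PC9OR. Its log2 fold change was 0.84 with a standard error of 0.121 (edgeR adjusted p = 0.0105), and the call was lost without PC9OR replicate 1 (edgeR adjusted p = 0.0829) or replicate 2 (edgeR adjusted p = 0.0602). *TEK* itself was at 0.04 FPKM or less.

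Other secreted angiogenic factors moved in both directions. Of 9 tested, 3 were higher and 2 lower, beside 15.6% and 20.8% of all genes, with a median log2 fold change of -0.21. The growth factor gene *MDK* was lower as well under length and GC offsets, at -0.57 (edgeR adjusted p = 0.0265). *CXCL8*, a chemokine that attracts neutrophils and endothelial cells, fell from 60.5 and 90.2 FPKM to 24.4 and 27.3 FPKM (log2 fold change -1.52, edgeR adjusted p = 0.0113). *CCN1*, a matrix-associated factor, fell by 0.82 on the log2 scale (edgeR adjusted p = 0.0325). The 3 that were higher, *ANG*, *PTN* and *APLN*, stayed below 1 FPKM in every library, and the call on *ANG* was lost in 6 settings. *PTN* had 1 count over the PC9 libraries and 105 over the PC9OR libraries, a ratio of 85.8 with a 95% interval of 15.1 to 3419, again for counting error only. *APLN*, the apelin ligand, was higher by a log2 value of 2.87 (edgeR adjusted p = 0.0207), a call lost when either PC9OR replicate was left out (edgeR adjusted p = 0.1 and 0.0969).

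Of 10 inhibitors of angiogenesis, 4 were tested, and 1 was higher and 1 lower, beside 15.6% and 20.8% of all genes. Under length and GC offsets the counts were 1 and 0, beside 21.4% and 19.4%. *COL18A1*, the collagen from which endostatin is released, went from 6.29 and 5.19 FPKM to 16.2 and 13.7 FPKM (log2 fold change 1.41 with a standard error of 0.146, edgeR adjusted p = 0.00627). The lines did not overlap. *TIMP3*, an inhibitor of metalloproteinases and of *KDR*, had a log2 fold change of -0.46 (edgeR adjusted p = 0.0308) that became 0.03 under length and GC offsets, and the call was lost when either PC9OR replicate was left out.

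Genes that control several members by way of oxygen sensing were examined next, since *VEGFA*, *EDN1* and *ANGPTL4* are known hypoxia targets. *HIF1A*, the oxygen-regulated factor, had 135 and 126 FPKM in PC9 and 104 and 96.2 FPKM in PC9OR and missed the threshold (log2 fold change -0.35, edgeR adjusted p = 0.0578). *HIF1A* passed under length and GC offsets, at -0.36 (edgeR adjusted p = 0.038), by DESeq2 (adjusted p = 0.0165), and when PC9 replicate 1 or 2 was left out (edgeR adjusted p = 0.02 and 0.00861). *EPAS1*, its relative, was not called either, at -0.15 (edgeR adjusted p = 0.525), and turned to 0.40 and passed under length and GC offsets (edgeR adjusted p = 0.0198). Without PC9 replicate 2 the value of *EPAS1* was -0.39, so its direction depended on the setting. Of 8 genes in the HIF pathway, *HIF1AN*, which restrains HIF activity, was the 1 called, at -0.97 (edgeR adjusted p = 0.0173), a call lost without PC9OR replicate 1 (edgeR adjusted p = 0.0932) and a value of -0.38 under the offsets. Calls in this list went from 0 higher and 1 lower by edgeR to 3 higher and 2 lower under the offsets. Over all genes the shares went from 15.6% and 20.8% to 21.4% and 19.4%. Under the offsets the prolyl hydroxylase genes *EGLN2* and *EGLN3* were at 0.54 and 0.56.
Hypoxia response genes were called in both directions. Of 24 tested out of 25, 7 were higher and 7 lower, beside 15.6% and 20.8% of all genes. The median log2 fold change was 0.20. Under length and GC offsets 10 were higher and 5 lower, beside 21.4% and 19.4%, with a median of 0.25. *CA9*, a carbonic anhydrase, went from 0.93 and 1.13 FPKM to 7.38 and 7.53 FPKM (2.88, edgeR adjusted p = 0.00448). *DDIT4*, which restrains mTOR, rose by 1.37 (edgeR adjusted p = 0.0107), while the lipoprotein receptor gene *VLDLR* fell by 1.46 (edgeR adjusted p = 0.0117) and the hexokinase gene *HK2* by 1.39 on the log2 scale (edgeR adjusted p = 0.00866). *HK2* fell by 0.68 under length and GC offsets.

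**Figure D4:**
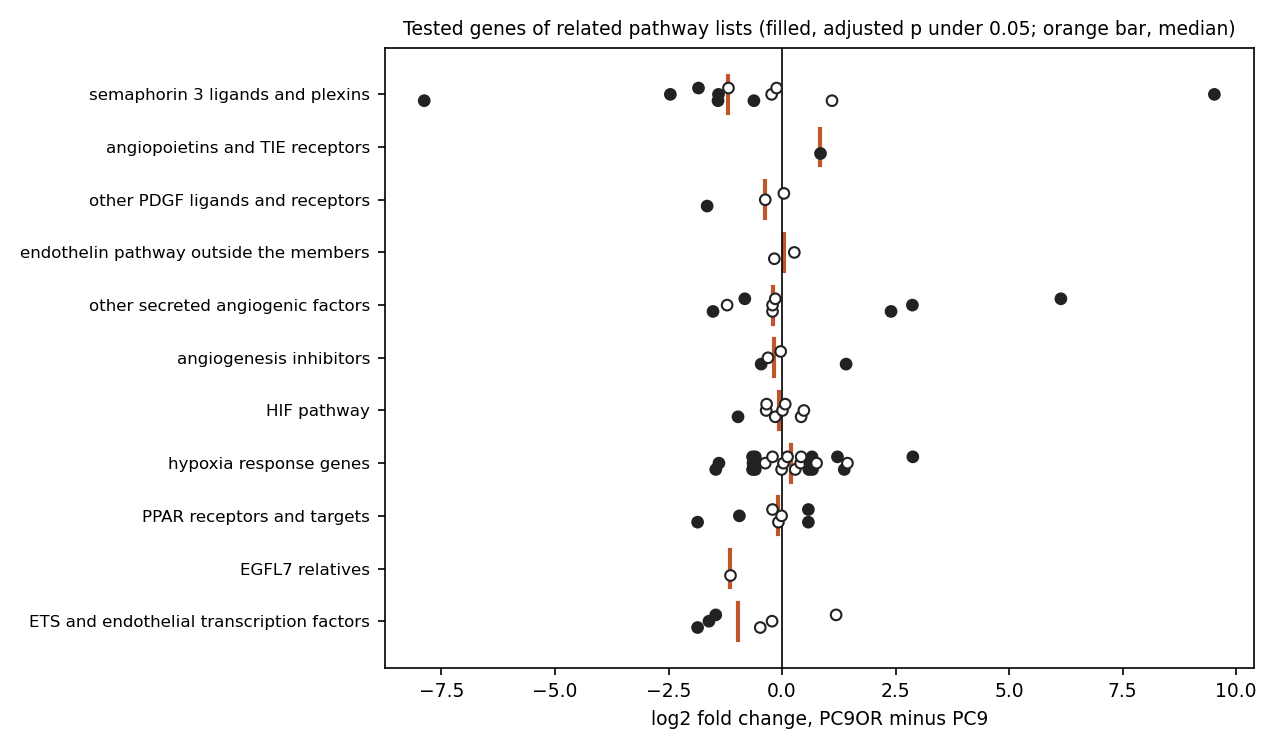
The log2 fold change (x axis, PC9OR minus PC9) of every tested gene in the related lists that had one, with filled symbols for an edgeR adjusted p under 0.05 and orange bars for the median. Without offsets, semaphorins and plexins (median -1.18) and ETS and endothelial transcription factors (-0.97) lie mostly left of 0. Hypoxia response genes (0.20) lie on both sides. The fitted positions of *SEMA3A* and *SEMA3D* depend on a prior count because 1 line is near 0.

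PPAR receptors and their targets, which include the regulators of *ANGPTL4*, were called in both directions. Of 7 tested, 2 were higher and 2 lower, beside 15.6% and 20.8% of all genes. Under length and GC offsets 3 were higher and 1 lower, beside 21.4% and 19.4%. *PPARD* fell from 8.16 and 5.23 FPKM to 1.92 and 1.70 FPKM (log2 fold change -1.86, edgeR adjusted p = 0.0116). *PPARG* went from 51.3 and 50.2 FPKM to 74.9 and 72.3 FPKM (0.58, edgeR adjusted p = 0.0143). The call on *PPARG* was lost under length and GC offsets, at 0.23 (edgeR adjusted p = 0.179), and without PC9OR replicate 1 or 2. *PPARA* and *RXRA* were called higher under the offsets, at 0.91 (edgeR adjusted p = 0.0102) and 0.30 (edgeR adjusted p = 0.0433), from -0.01 and -0.21 without them.

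Among ETS and endothelial transcription factors, which drive many endothelial genes, 6 of 10 were tested. By edgeR 3 were lower and 0 higher, beside 20.8% and 15.6% of all genes, with a median log2 fold change of -0.97. *KLF2*, which responds to blood flow, had 0.38 and 0.27 FPKM in PC9 and 0.83 and 0.62 FPKM in PC9OR, a log2 fold change of 1.19 (edgeR adjusted p = 0.0568). Under length and GC offsets *KLF2* was called higher, at 1.32 (edgeR adjusted p = 0.0276), and the median of the list was -0.70. *ETS1* went from 17.8 and 16.6 FPKM to 5.51 and 5.48 FPKM (-1.61, edgeR adjusted p = 0.0038). *ELK3* went from 21.0 and 18.5 FPKM to 5.10 and 5.34 FPKM (-1.86, edgeR adjusted p = 0.00399), and *KLF4* fell by 1.46 on the log2 scale (edgeR adjusted p = 0.00719). The endothelial factors *ERG* and *FLI1* were at 0.03 FPKM or less. Over all 13 related lists together, 74 of 111 genes were tested, with a median of -0.19. Of these, 15 were higher and 23 lower, beside 15.6% and 20.8% of all genes. Under length and GC offsets the counts were 25 and 20, beside 21.4% and 19.4%.

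Of 5 endothelial markers tested, 2 were lower and 0 higher by edgeR, beside 20.8% and 15.6% of all genes. *MMRN2*, at 0.57 and 0.45 FPKM in PC9 and 0.72 and 0.74 FPKM in PC9OR, was called higher under length and GC offsets, at 0.95 (edgeR adjusted p = 0.0323). Of 12 such markers 11 were listed, and their summed level was 7.88 to 12.1 FPKM in PC9 and 2.19 to 2.49 FPKM in PC9OR. Only *CDH5* and *ESAM*, both junction proteins, passed 1 FPKM, and both fell. *CDH5* went from 6.08 and 4.10 FPKM to 0.86 and 0.80 FPKM (log2 fold change -2.57, edgeR adjusted p = 0.00529), and *ESAM* fell by 2.54 on the log2 scale (edgeR adjusted p = 0.0109). *VWF* and *TIE1* were at 0.01 FPKM or less, *KDR* was not listed, and *PECAM1* was at 0.39 FPKM or less, while *CDH5*, also a defining endothelial marker, was well above 0 in PC9. Of the fibroblast and mural cell markers 0 of 9 passed 1 FPKM, and of the leukocyte markers 1 of 7 did. This was *CD68*, which fell by 1.10 on the log2 scale (edgeR adjusted p = 0.0158), a call lost when either PC9OR replicate was left out. The leukocyte marker *CD14*, at 0.36 FPKM or less, was called lower as well under length and GC offsets, at -2.75 (edgeR adjusted p = 0.0492).

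Epithelial markers went in both directions, with 3 of 7 tested higher and 3 lower, beside 15.6% and 20.8% of all genes. The summed FPKM of the markers was 2248 to 2490 in PC9 and 4566 to 4710 in PC9OR. *KRT8*, a keratin of simple epithelia, had 669 and 778 FPKM in PC9 and 1737 and 1717 FPKM in PC9OR (log2 fold change 1.28, edgeR adjusted p = 0.00568). *EGFR*, the target of osimertinib, went from 153 and 96.8 FPKM to 40.9 and 37.5 FPKM (-1.46, edgeR adjusted p = 0.0132), and *CDH1*, which joins epithelial cells, fell by 1.46 on the log2 scale (edgeR adjusted p = 0.00814). The part of these shifts in the changes of the angiogenic genes was not tested.

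In PC9 the members ran in the order *VEGFA*, *EDN1*, *NRP1*, *NRP2*, *EGFL7*, *PDGFA*, *VEGFC*, *PGF*, *VEGFB* and *ANGPTL4* by mean FPKM, from 45.5 ± 5.60 to 0.025 ± 0.0354 (SD, n = 2). *VEGFA* and *EDN1* overlapped between replicates, as did *VEGFC* with *PGF* and *PGF* with *VEGFB*. In PC9OR the order was *VEGFA*, *EGFL7*, *NRP1*, *EDN1*, *NRP2*, *PGF*, *PDGFA*, *VEGFB*, *VEGFC* and *ANGPTL4*, from 48.5 ± 0.354 to 0.005 ± 0.00707 (SD, n = 2). There *PGF* overlapped with *PDGFA* and *VEGFB* with *VEGFC*, and *EGFL7* at 23.3 ± 0.318 stood next to *NRP1* at 22.8 ± 0.346 (SD, n = 2), a gap no larger than 2 of these SDs.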

How the data were processed

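Poly(A) or total selection is not given in the sources used here. Libraries were made with a TruSeq Stranded kit from 2 biological replicates each of PC9 and PC9OR cells, and the strand setting of the counting was not stated. The submitters' processing notes name Bowtie2 2.2.5, RSEM 1.2.12 and GRCh37. The authors deposited, per gene and library, an expected count (an estimated number of reads, not normalized), an FPKM value scaled by length and library size, and an isoform-weighted transcript length in bases. Only genes with an expected count above 0 were listed, the lowest being 0.14, and a gene missing from a file was taken as 0. The lists, members and tests were chosen with earlier results of these data known.

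After rounding of the expected counts, the whole table was tested with edgeR 4.0.16 under R 4.3.3 (TMM scaling, default filterByExpr, estimateDisp, glmQLFit and glmQLFTest), with Benjamini-Hochberg adjustment over 13148 genes. The study's tool, DEGseq, was not installed, so its MA-plot-based model was rewritten as an alternative. Other alternatives were DESeq2 1.42.0, limma 3.58.1 on log2(FPKM + 1) and log2(FPKM + 0.1), other scalings and filters, offsets for length and GC content (curves by mgcv 1.9.3), a replicate block and leaving out each library. Symbols were matched for 99.66% and GC content for 96.72% of genes. On simulated counts for PC9OR against PC9 (13106 genes run, 200 changed), edgeR called 35% of 2-fold and 100% of 4-fold changes, with 6 false calls. The MA-plot-based model (15279 genes run) made 7965 false calls. The simulation gave all genes and both lines the same spread, had no trend with length and changed only genes with higher counts. The real libraries differed in spread and had such a trend, so these rates need not hold for them. Genes named were the 10 members, up to 4 called genes with the largest change in each list, direct ligands, receptors and regulators of members, and the 3 genes nearest to EGFL7, and a few further list genes and markers were named after their values were seen. Positions came from GENCODE lifted to GRCh37, and promoters from RefSeq on GRCh38.p14.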

Additional observations from a re-analysis of the deposited data

How the results depend on the processing

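ANGPTL4 had too few counts to test, and for the other members 2 libraries per line limit the precision. Over 17 alternatives, 130 of the 153 fold changes of members kept their direction and their side of the threshold, 16 newly passed it, 4 no longer did and 3 reversed. EGFL7, VEGFC and NRP2 were called in every one of the 17. Of 657 values for other named genes, 604 kept both, 30 no longer passed, 10 newly passed and 13 reversed. For the results that changed, the cause was not tested.

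Reversals came with length offsets, with length and GC offsets, with the replicate block combined with length offsets, or without PC9 replicate 1. NRP1 turned from -0.26 to 0.08 under each of the first 3. In the same order PLXND1 turned to 0.41, 0.51 and 0.42, ECE1 to 0.16, 0.32 and 0.16, and EPAS1 to 0.19, 0.40 and 0.19, while TIMP3 turned to 0.03 under length and GC offsets alone. Leaving out 1 library gave PLXND1 values from -0.48 to 0.31, ECE1 from -0.36 to 0.02 and EPAS1 from -0.39 to 0.09. Each was positive without PC9 replicate 1 and lowest without PC9 replicate 2.

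Members called higher went from 1 to 3 by the MA-plot-based model and under length and GC offsets. Leave-one-out counts were 1 to 3 members higher (3 without PC9 replicate 1) and 2 to 6 lower (2 without PC9OR replicate 2). For the 13 other lists the MA-plot-based model called 27 genes higher and 40 lower, length and GC offsets called 25 higher, and leave-one-out gave 6 to 19 higher and 14 to 34 lower (6 and 14 without PC9OR replicate 1, 6 and 15 without replicate 2). Over all genes the MA-plot-based model called 5764 higher and 5705 lower, and leave-one-out gave 525 to 3932 higher and 1177 to 3929 lower, with 525 and 1177 without PC9OR replicate 1, 527 and 1191 without PC9OR replicate 2, and 3932 and 3929 without PC9 replicate 2. With more than 2-fold required, 8 and 13 list genes and 806 and 1523 of all genes were higher and lower. At an adjusted p under 0.001 as well, edgeR called 0 in each of these groups, with 6653 genes at an unadjusted p under 0.05. At more than 2-fold and an adjusted p under 0.001, DESeq2 called 1735 genes and 4 members. The MA-plot-based model, which pools replicates, called 2929 genes and 5 members. Other edgeR fits called 1184 genes and 2 members with the replicate block. With the replicate block and length offsets they were 1168 and 3, and under length and GC offsets 108 and 0.

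The median log2 fold change of the members was -0.50 and -0.58 by limma with pseudocounts 1 and 0.1, -0.52 with length offsets, -0.39 under length and GC offsets, and -0.58 to -0.55 leaving out 1 library. Without EGFL7 it was -0.62 by limma with pseudocount 1, -0.69 under length and GC offsets and -0.93 to -0.66 leaving out 1 library.

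The libraries of the lines share replicate numbers, and the deviations of same-numbered libraries correlated at 0.055 over genes. With 2 replicates per line the deviations within a line mirror each other, so the second pair adds nothing. The value cannot decide whether same-numbered libraries shared a batch, and the sources used here state no pairing. With the replicate block, 1 member was higher and 5 lower, and 2593 genes were higher and 2946 lower over all. With the replicate block and length offsets, 3092 genes were higher and 2534 lower, the higher count then exceeding the lower, and the median of the members was -0.52.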
